A study of Mus musculus with 10 samples.

Results

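Cytosolic ribosomal proteins are the protein subunits of the ribosomes that translate nuclear-encoded mRNA. Their transcripts were followed here in the cerebral cortex of mice with and without full-length FE65. Members were taken by gene symbol alone: a probe set had to be annotated with 1 gene, named Rpl or Rps with a number, or Rplp0, Rplp1, Rplp2 or Rpsa. S6 kinases, pseudogenes and the like-named relatives were left out. This gave 91 probe sets for 42 genes, 20 of the small (40S) and 22 of the large (60S) subunit, out of 22626 probe sets and 12393 genes. Each gene was represented by the probe set with the brightest mean over the 10 arrays. The mouse annotation of assembly GRCm38.p6 holds 80 protein-coding genes that fit the same rule. Another 102 probe sets name a ribosomal protein gene together with copies or other genes, and for 29 genes these are the sole probe sets, so those genes were not analysed here by name.

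Cortex RNA came from male mice aged 6 months, 5 carrying the label wild type and 5 the label null for *p97FE65*, and each Affymetrix mouse genome array held the RNA of 1 mouse. The null allele removes the full-length form of FE65, p97 (gene symbol Apbb1), an adaptor protein that binds APP, in every cell of the body. It was made in ES cells of another mouse strain and crossed into C57Bl/6J over 10 generations, so null mice can keep sequence of the ES cell strain around FE65 on chromosome 7, and the study describes the animals as littermate pairs. The values are log2 expression from GC-RMA, in which a difference of 1 is a doubling. Probe sets differ in how well they bind, so a higher value of one gene than of another does not mean more mRNA.

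Every ribosome carries each of these proteins, with few exceptions, in a single copy, apart from the acidic proteins of the stalk, which sit in several. Small-subunit proteins surround the channel where mRNA enters and is decoded. Large-subunit proteins surround the catalytic RNA and the tunnel through which the new chain leaves, and the stalk recruits the elongation factors. The mRNAs of this family begin with a run of pyrimidines, the terminal oligopyrimidine (TOP) motif, through which mTOR controls their translation together. In neurons, ribosomes in dendrites and axons make proteins close to synapses.

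To show how the family shares its start sites, 30 bases around the annotated start (10 before, then 20 from the start base) are printed for 8 members that the results turn on or that carry a clear run, from the RefSeq promoter table of assembly GRCm38.p6, 5′ to 3′ on the gene's strand. Capitals mark the longest run of a C and at least 4 further pyrimidines.
Rpl7a, chr2:26910797-26910826, + strand: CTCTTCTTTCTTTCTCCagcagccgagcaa
Rpl35, chr2:39005112-39005141, - strand: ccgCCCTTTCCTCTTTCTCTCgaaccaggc
Rpl38, chr11:114668570-114668599, + strand: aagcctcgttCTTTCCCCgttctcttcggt
Rplp2, chr7:141447641-141447670, + strand: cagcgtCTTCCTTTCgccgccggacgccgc
Rps10, chr17:27635225-27635254, - strand: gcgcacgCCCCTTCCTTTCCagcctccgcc
Rps18, chr17:33955646-33955675, - strand: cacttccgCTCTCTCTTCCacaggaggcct
Rps6, chr4:86857348-86857377, - strand: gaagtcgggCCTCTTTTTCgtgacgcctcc
Rps3, chr7:99483690-99483719, - strand: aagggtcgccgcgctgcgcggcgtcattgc
The table held 43 promoters for 37 of the 42 genes. Such a run lay in this window in 27 of the 43 (62.8%), against 35.8% of all 32851 promoters, and it began exactly at the start base in 8 (18.6%), against 2.51%. In Rpl38 the run starts at that base, in Rpl7a it fills the 10 bases before it and continues past it, and in Rps3 no run is in the window. The letters CGGAAG, on either strand of the 300 bases, were in 27 of the 43 member promoters and in 16.9% of all, and TATAAA in 5 (11.6%) and in 13.6%. These matches describe letters in a window and not sites of binding. Among the genes with a run, 14 were higher and 11 lower under the null label (median difference 0.02), and among those without, 10 were higher and 2 lower (0.04).

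The 10 arrays had medians of 3.01 to 3.14 (log2) and correlated pairwise at 0.994 to 0.999, and none duplicated another. The exon that was deleted is not read by either Apbb1 probe set, and their level does not show the deletion. They were higher in the arrays labelled null, by 0.11 for 1423892_at and by 0.26 for 1423893_x_at, the latter without overlap (11.30 to 11.51 against 10.98 to 11.23). Gprc5b probe set 1451411_at was lower in the arrays labelled null, between 4.71 and 6.92 against 7.07 to 7.74, a difference of -1.23. For all 3 probe sets the study's supplementary tables give the same fold sizes in the opposite direction. By RT-PCR, which amplifies a chosen stretch of RNA, the study also found the Gprc5b region under this probe set higher in forebrains of null mice. It reported the splice variant that holds this region in brains of the parental strains of the ES cells as well. This direction is that of the supplementary tables and opposite to that of the array labels. Arrays are named here by label alone, since it was not settled which genotype a label stands for. Of the markers of excitatory cortical neurons, 4 of 6 were measured, and Tbr1 and Neurod6, transcription factors of these cells, had means of 7.70 and 8.84. All 4 had a difference under 0 (median -0.24), at -0.33 (SE 0.21) for Tbr1 and -0.48 (SE 0.22) for Neurod6, and none an unadjusted limma p under 0.05. Of the interneuron markers 4 were lower and 1 higher, of the astrocyte markers 2 and 3, and of the microglia markers 1 and 4. The 4 cerebellar markers had means under 5, and 1 of them, Cbln1, an unadjusted limma p under 0.05 (difference 0.26, mean 2.58). Of all genes, 1.33% were higher at that threshold. Of the oligodendrocyte markers, 4 of 5 were measured, and all 4 had a difference under 0. Of these, Mbp and Cldn11 had an unadjusted limma p under 0.05, 2 of 4 lower beside 2.61% of all genes. Of the 2741 genes with a mean of at least 8, 1848 were lower, 171 of them at that threshold. The summed level (log2) was 13.79 to 13.92 in labelled null against 13.93 to 14.27. It is carried by Mbp, with a mean of 13.95 against 8.67 for Mag, the next highest. The groups of Cldn11, Mag and Mog overlapped. The summed level of excitatory markers was 9.09 to 9.87 in labelled null and 9.59 to 10.16 in labelled wild type. The part of these cell types in the results was not tested.

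Transcripts of the ribosomal proteins were at nearly the same level under both labels. None of the 42 genes passed an adjusted p of 0.05 from limma over all probe sets, where the share called was 0%, and the lowest adjusted p of a member was 0.999. At an unadjusted p under 0.05, 1 gene was higher in the arrays labelled null, Rpl7a, against 1.33% of all genes, and 0 were lower, against 2.61%. In no member did the 5 mice of one label all lie above the 5 of the other, against 0.686% of all genes (0.315% with labelled null above, 0.371% below). The median difference, labelled null less labelled wild type, was 0.04 (log2), with 27 genes higher and 15 lower, beside a median of -0.0021 over all genes, with 6053 higher and 6340 lower. In tissue RNA, fewer cells of a type and less RNA per cell cannot be told apart. Without null replicate 5 the median was 0.0050, with 24 higher and 18 lower. After quantile normalization it was 0.06, with 34 higher and 8 lower.

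The intervals were narrow enough to bound the change of most members. The differences ran from -0.18 for Rps29 to 0.21 for Rpl12. For 26 of the 42 genes the 95% confidence interval lay wholly inside a change of 1.2-fold, for 41 inside 1.4-fold and for all 42 inside 1.5-fold. The gene outside 1.4-fold was Rpl14, a protein of the 60S surface, whose probe set was near background with a mean of 1.84. These counts include 5 genes with a mean under 5. Of the 35 genes with a mean of at least 8, 22 intervals lay inside 1.2-fold and all 35 inside 1.4-fold. Some other probe sets of such a mean had wider intervals, from -0.83 to 0.32 for 1434624_x_at of Rps9 and from -0.52 to 0.65 for 1416217_a_at of Rpl37a. The precision rests on 5 mice per label.

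**Figure D1:**
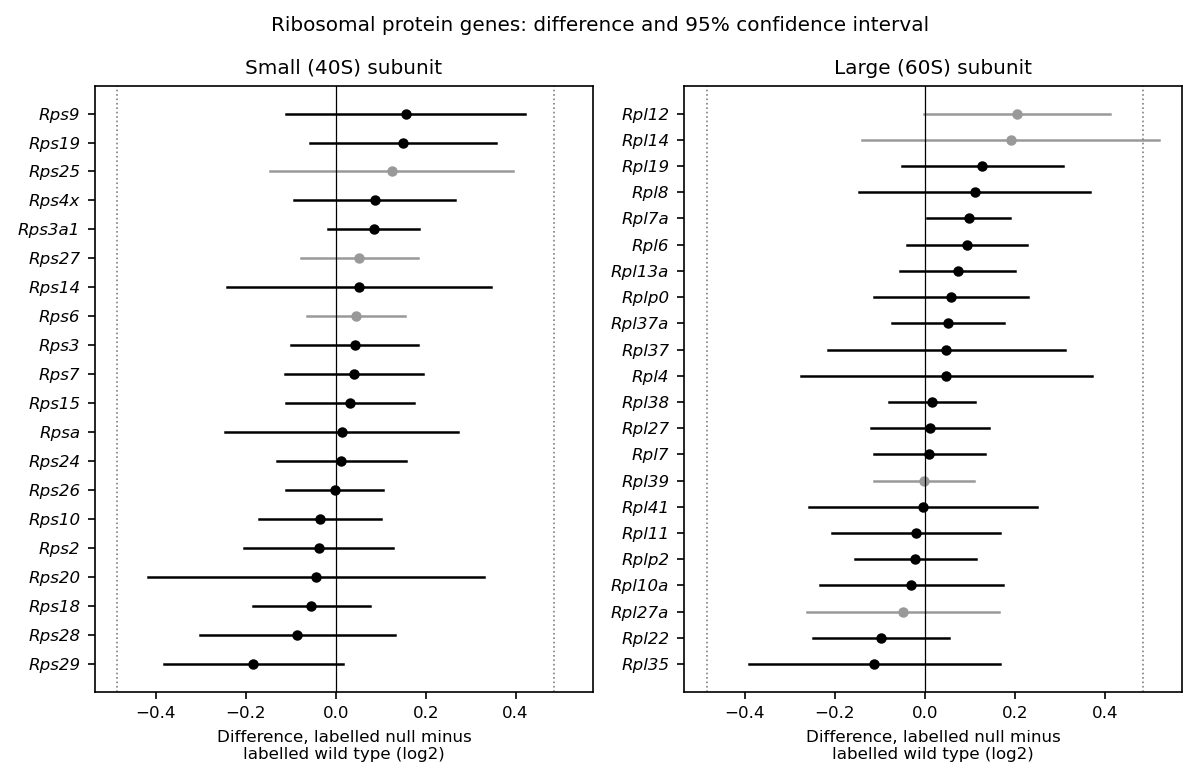
Labelled null minus labelled wild type (log2 difference, horizontal axis) for each ribosomal protein gene with its 95% confidence interval from limma, for small-subunit (left) and large-subunit (right) genes, black where the mean was at least 8 and grey where it was lower. The dotted lines mark 1.4-fold either way, and all intervals but that of Rpl14 lie between them.

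Most members were read far above background. In 35 of the 42 genes the mean was at least 8, 17 of them of the 40S and 18 of the 60S subunit. These 35 had a median difference of 0.02, with 22 higher and 13 lower, while the 2741 genes of the array with a mean of at least 8 had a median of -0.05, with 893 higher and 1848 lower. By subunit, the medians of the bright members were 0.01 (40S) and 0.03 (60S). After quantile normalization, the median of the 2741 genes was 0.0084 and that of the 35 members 0.06. The other 7 genes were Rpl12, Rpl27a, Rps25, Rps27, Rps6, Rpl39 and Rpl14, of which 5 had a mean under 5 and were dim.

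Rpl7a, a 60S protein that contacts the rRNA, had the smallest p of all members. It was at 12.75, 12.72, 12.67, 12.79 and 12.67 in replicates 1 to 5 labelled wild type and at 12.78, 12.78, 12.79, 12.89 and 12.86 in those labelled null. 1 mouse labelled wild type, replicate 4, lay within the range of those labelled null. The means were 12.72 ± 0.05 and 12.82 ± 0.05 (SD, n = 5 mice each), a difference of 0.10 (SE 0.04, 95% confidence interval from 0.01 to 0.19). The unadjusted limma p, which tests the difference of the means against the spread between mice, was 0.0400, and the exact permutation p was 0.0317 (two-sided). The limma p was above 0.05 without dim probe sets (0.152), with a floor at 4 (0.0712), with an intensity trend and robust prior (0.112), with array weights (0.0672) and with the replicate block (0.0590). It was also above 0.05 without wild type replicates 2, 3 or 5 or null replicates 4 or 5, where it lay between 0.0563 and 0.0918.

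Next in order of p came Rpl12, a 60S protein at the base of the stalk. Its probe set was of modest signal, at 5.53, 5.75, 5.66, 5.78 and 5.43 under the wild type label and at 5.68, 5.79, 6.12, 5.82 and 5.75 under the null label. The groups overlapped, with null replicate 3 above all others. The difference was 0.21 (SE 0.09), the highest of the family, with a limma p = 0.0521 and an exact permutation p = 0.0714 (two-sided). With median centring, quantile normalization, array weights, the replicate block or the mean of probe sets this p was between 0.0178 and 0.0476, as it was between 0.0319 and 0.0397 without null replicate 1 or wild type replicates 2 or 4, and no setting brought an adjusted p under 0.05.

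Rps3a1, a 40S protein near the mRNA exit, was at 12.74, 12.67, 12.77, 12.70 and 12.69 in labelled wild type and at 12.74, 12.81, 12.80, 12.72 and 12.92 in labelled null. The difference was 0.08 (SE 0.05, limma p = 0.0954, exact permutation p = 0.0635, two-sided). After quantile normalization the difference was 0.13, and the groups no longer overlapped. Rpl7a was the other gene without overlap after that normalization. The share of all genes without overlap is given here for the values as deposited alone. Rps19, which encodes a protein of the 40S head and is the gene most often mutated in Diamond-Blackfan anaemia, was at 10.40, 10.47, 10.45, 10.54 and 10.68 in labelled wild type and at 10.41, 10.65, 10.73, 10.57 and 10.94 in labelled null. The groups overlapped over most of their range. Its difference was 0.15 (SE 0.09, limma p = 0.140, exact permutation p = 0.183, two-sided), and its limma p was 0.0175 after quantile normalization, 0.0413 with the replicate block and 0.0326 without null replicate 1.

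The other members of the upper side had wider overlap. Rpl19, whose protein bridges the subunits, differed by 0.13 (SE 0.08), Rpl6 by 0.09 (SE 0.06) and Rps9, a primary rRNA binder of the 40S subunit, by 0.16 (SE 0.12). None of the 3 had a limma p under 0.05. Without wild type replicate 1, the p of Rpl19 was 0.0356, since that mouse had the highest Rpl19 value of all, 12.55.

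On the lower side, Rps29, a small zinc-binding protein of the 40S head, had the lowest difference. It was at 12.95, 13.30, 13.29, 13.32 and 13.26 under the wild type label and at 13.05, 13.01, 13.09, 12.82 and 13.23 under the null label. Of the mice labelled wild type, 4 lay above all mice labelled null, and the other, replicate 1, lay below 4 of them. The difference was -0.18 (SE 0.09, 95% confidence interval from -0.38 to 0.02), with a limma p = 0.0677 and an exact permutation p = 0.119 (two-sided). Without wild type replicate 1 the groups of Rps29 did not overlap and the difference was -0.25, without null replicate 5 it was -0.23, and with array weights -0.21, each with an unadjusted limma p under 0.05. The other Rps29 probe sets differed by -0.07 (SE 0.07) and -0.08 (SE 0.06).

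Rpl22, a 60S protein also known as a binder of viral and cellular RNA, was at 10.02 ± 0.07 in labelled wild type and 9.92 ± 0.14 in labelled null (SD, n = 5 mice each), a difference of -0.10 (SE 0.07, exact permutation p = 0.222, two-sided). Its other probe set, of nearly the same mean (9.95 against 9.97), had the opposite sign, at 0.05 (SE 0.09). By the brighter probe set the difference was -0.15 without null replicate 5, with an unadjusted limma p under 0.05. The remaining named genes of the lower side were closer to 0. Rpl35, which lies at the mouth of the exit tunnel, differed by -0.11 (SE 0.13), Rps28 by -0.09 (SE 0.10), Rps18, of the 40S head, by -0.05 (SE 0.06), Rps10, beside the mRNA entry, by -0.03 (SE 0.06), and Rps2, also at the entry, by -0.04 (SE 0.07). Of these 5, Rps10 and Rps2 turned to above 0 after quantile normalization, at 0.0044 and 0.02.

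**Figure D2:**
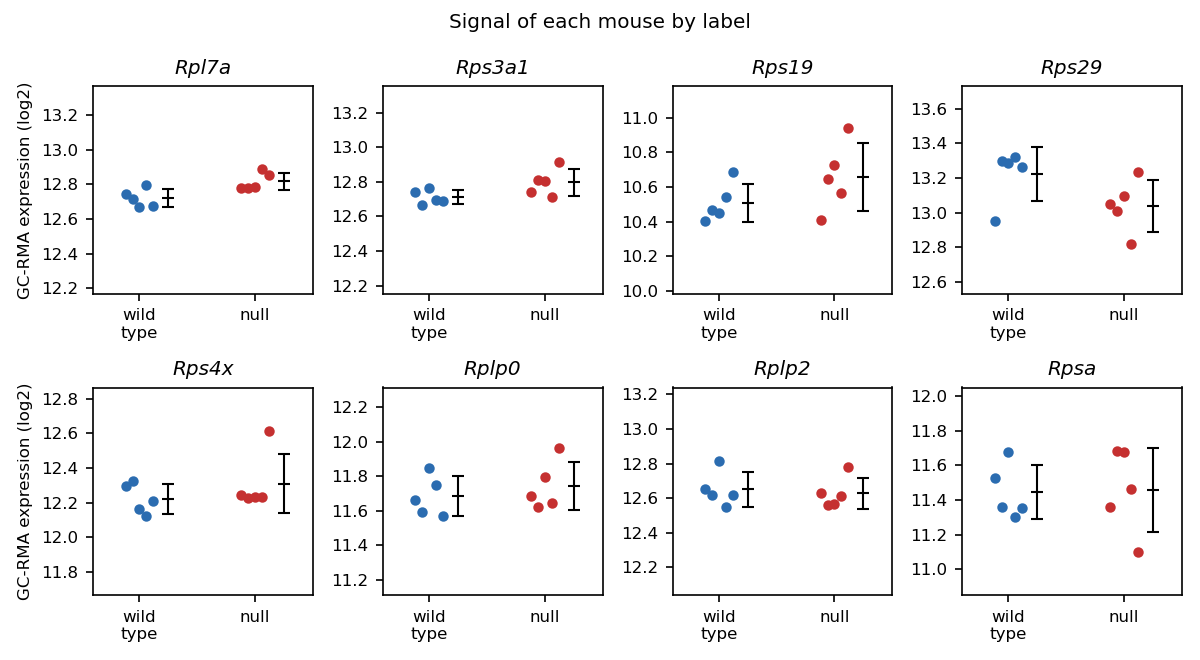
GC-RMA expression (log2, vertical axis, 1.2 units in each panel) of 8 ribosomal protein genes, where blue points are the 5 mice labelled wild type, red points the 5 labelled null, and black bars the group mean ± SD. The labels overlap in every panel, and the points of Rps4x labelled null lie together but for null replicate 5 at 12.61.

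The stalk was read by Rplp0, its anchor on the rRNA, and Rplp2, a partner in the acidic dimers, while no single-gene probe set read Rplp1. Rplp0 was at 11.66, 11.59, 11.85, 11.75 and 11.57 in labelled wild type and at 11.69, 11.62, 11.80, 11.64 and 11.96 in labelled null, a difference of 0.06 (SE 0.08). Rplp2 was at 12.65, 12.62, 12.82, 12.55 and 12.62 in labelled wild type and at 12.63, 12.56, 12.56, 12.61 and 12.78 in labelled null, a difference of -0.02 (SE 0.06). Both genes thus overlapped throughout, and Rplp2 turned to 0.03 after quantile normalization. Rpsa, the 40S protein also described as a laminin receptor, was at 11.44 ± 0.16 and 11.46 ± 0.24 (SD, n = 5 mice each), a difference of 0.01 (SE 0.12).

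Rps6, the 40S protein that S6 kinases phosphorylate downstream of mTOR, could not be followed at its true signal. Its single-gene probe sets had means of 2.72 and 1.87, near background, and differed by 0.04 (SE 0.05) and 0.09 (SE 0.07). Rpl11, which with 5S rRNA can bind Mdm2, was at 9.91 ± 0.07 and 9.89 ± 0.19 (SD, n = 5 mice each), a difference of -0.02 (SE 0.08). Of the genes on chromosome X, Rps4x was at 12.29, 12.32, 12.17, 12.12 and 12.21 in labelled wild type and at 12.24, 12.23, 12.23, 12.23 and 12.61 in labelled null. Null replicate 5 alone stood above the rest, and the difference was 0.09 (SE 0.08). Rpl39, a short protein of the exit tunnel, had a mean of 2.51 and a difference of -0.0020 (SE 0.05).

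In the gene order of chromosome 7, 2 members lie between Homer2 and Gprc5b, genes on either side of FE65. By DNA sequencing in the study the null mice carried Gprc5b of the ES cell strain. By genotyping of single-base variants the study also found sequence of that strain within Homer2, and it did not map the whole retained region. Rps3, a 40S protein at the mRNA entry that also has a role in DNA repair, was at 12.28, 12.33, 12.36, 12.37 and 12.52 in labelled wild type and at 12.33, 12.41, 12.30, 12.45 and 12.59 in labelled null, a difference of 0.04 (SE 0.06). Rpl27a was at 5.72 ± 0.19 and 5.67 ± 0.13 (SD, n = 5 mice each), a difference of -0.05 (SE 0.10), which was 0.0084 with array weights. Neither gene differed beyond the spread between mice. The 6 members of this chromosome, Rps3, Rpl27a, Rpl13a, Rplp2, Rps19 and Rps9, had a median difference of 0.06 and none had an unadjusted p under 0.05.

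The family varied less between mice of the same label than bright genes did in general. The SD within a label, pooled over both, had a median of 0.12 (log2) over the 35 bright members, from 0.05 for Rpl7a to 0.30 for Rps20, and of 0.16 over the 2741 genes with a mean of at least 8. Among genes with a mean of at least 12, the medians were 0.10 for 19 members and 0.12 for all 221. Rpl38, a 60S protein whose loss changes the translation of Hox mRNAs, lay between 13.37 and 13.58 in all 10 mice, and its difference was 0.02 (SE 0.04). Rps20 lay between 10.85 and 11.76, and both it and Rpl38 were named after their values were seen.

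Null replicate 5 stood apart within the family. Of the 35 bright members, 22 (62.9%) had their highest value of all 10 mice on this array, against 31.3% of the 2741 bright genes, and 3 had their lowest there, Rpsa, Rps14 and Rpl41. Averaged over the 35, this array was 0.13 above the mean of all arrays, and the other 9 lay between -0.04 and 0.04. The 40S and 60S members were raised alike, at 0.13 and 0.14, and the average of all bright genes on this array was also raised, at 0.12. That of the 221 genes with a mean of at least 12 was raised less, at 0.05. After quantile normalization the members of null replicate 5 were at 0.04, within the range of the other arrays labelled null, from -0.0034 to 0.05. The arrays labelled wild type then lay between -0.08 and 0.01, and null replicate 1 alone of its label lay within that range. Of the bright members 29 were then higher and 6 lower under the null label, beside 1458 and 1283 of the 2741 bright genes. The array weight of null replicate 5 in limma was 0.555, the second lowest after that of wild type replicate 2 at 0.398. Its 18S rRNA control signal at the 5′ end was the highest, at 8.85. The part of array quality in these values was not tested.

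**Figure D3:**
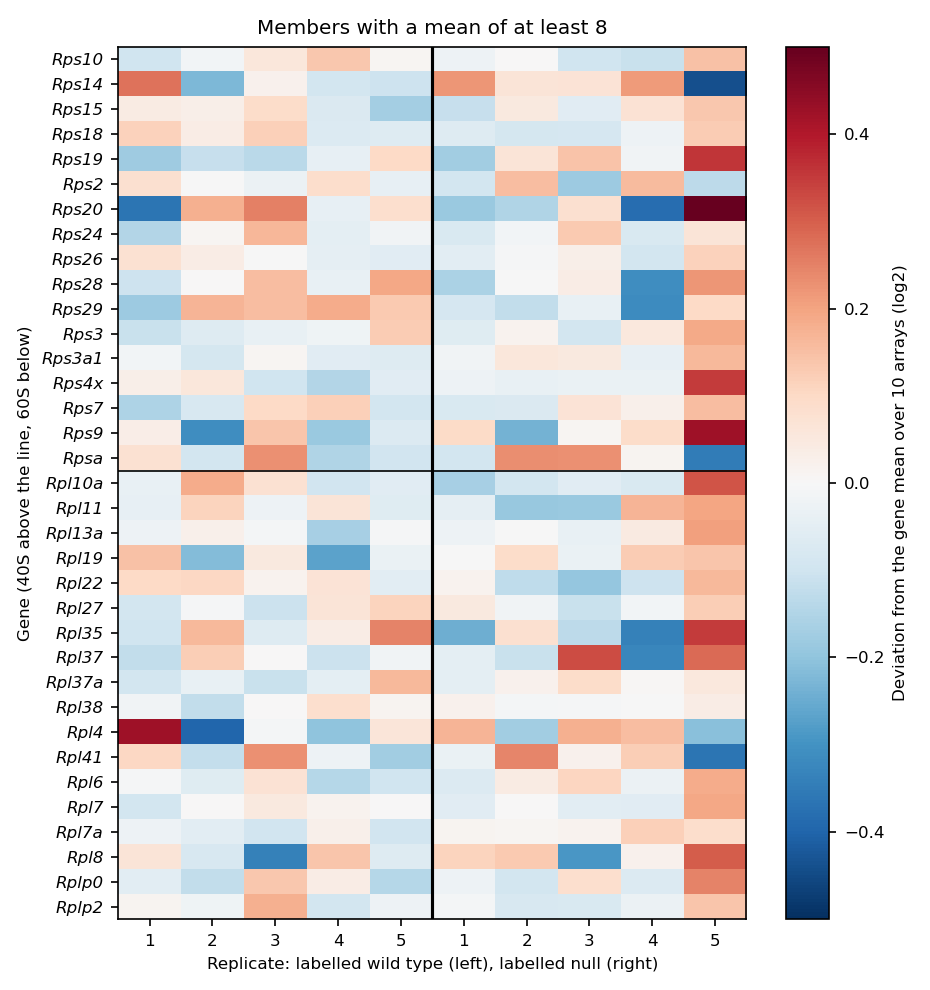
Deviation of each bright ribosomal protein gene (rows, 40S above the line and 60S below) from its own mean over the 10 arrays (colour, log2), for the mice labelled wild type (left) and null (right) by replicate number. The column of null replicate 5 is red for most genes and blue for Rps14, Rpsa, Rpl41, Rpl4 and Rps2, the colour scale is exceeded by Rps20 on that array, and no gene separates the left from the right side completely.

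The arrays also hold control probe sets to 18S rRNA, the RNA that the small-subunit proteins bind. At its 3′ end the signal was 10.2 ± 0.53 in labelled wild type and 10.3 ± 1.22 in labelled null (SD, n = 5 mice each; exact permutation p = 0.849, two-sided), with null replicate 3 lowest at 8.38 and null replicate 4 highest at 11.4. At the 5′ end it was 5.60 ± 1.16 and 6.32 ± 1.90 (exact permutation p = 0.50). The probe set to the middle of this rRNA had means of 3.18 in labelled wild type and 3.16 in labelled null. The signal of the 3′ and 5′ control probe sets thus varied far more between mice than that of any bright ribosomal protein gene. Whether these signals follow the amount of rRNA in the cortex was not tested. For the mRNA controls Actb and Gapdh, the 3′ minus 5′ difference was -0.03 to 0.37 and -0.07 to 0.27 over all mice.

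Several probe sets of the same gene did not always move alike. Of the 21 members with more than 1 probe set, 12 had differences of both signs, and among the 16 with at least 2 bright probe sets 11 did. Rps9 had the widest gap between bright probe sets, at 0.16 (SE 0.12) and -0.25 (SE 0.26), and the mean of its probe sets was -0.02. Rpl27, a 60S protein named after its values were seen, was at 0.01 (SE 0.06) by its brightest probe set and at -0.23 (SE 0.16) and -0.33 (SE 0.26) by the others. Rpl41, which encodes the shortest ribosomal protein, was at -0.0036 (SE 0.11) by its brightest probe set, 1422623_x_at, and at 0.30 (SE 0.10) by 1454639_x_at, whose limma p was 0.0142. That probe set was dim, with a mean of 2.76, between 2.46 and 2.76 in labelled wild type and between 2.65 and 3.20 in labelled null. With that of Rpl7a, 2 of the 91 probe sets had a p under 0.05, against 3.67% of all probe sets. Of the 91 probe sets, 38 are of the _x_at and 2 of the _s_at design class, which can bind several transcripts, and 13 members rest on such a probe set. The 102 probe sets of several genes had a median difference of 0.0033, with 52 higher and 50 lower.

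**Figure D4:**
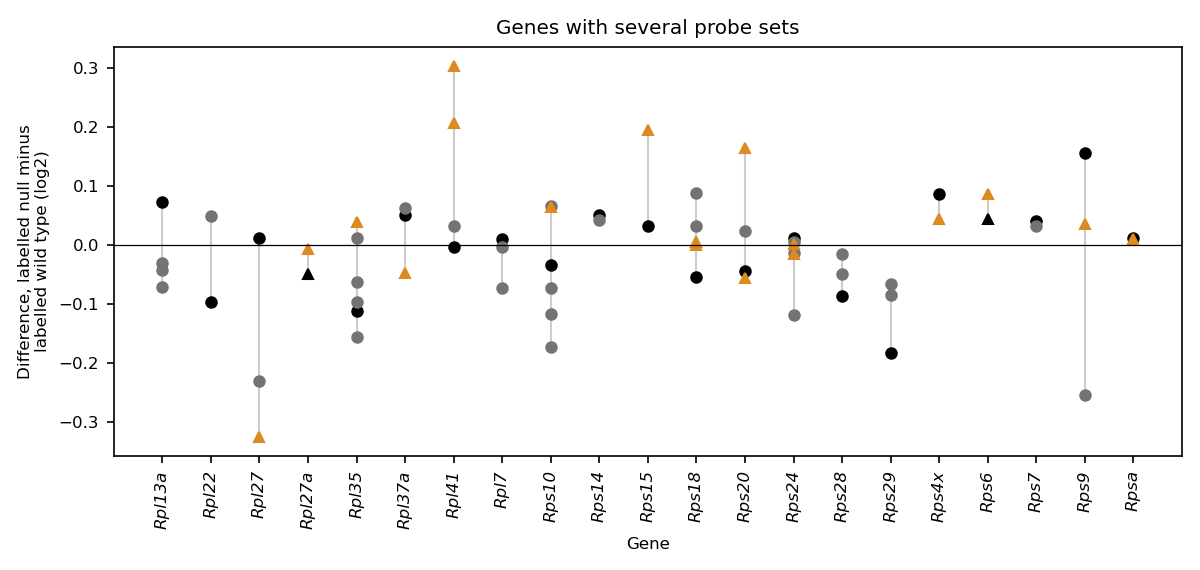
Labelled null minus labelled wild type (log2 difference, vertical axis) for every probe set of the 21 ribosomal protein genes with more than 1, black for the brightest, grey for other bright ones (circles, mean of at least 8) and orange triangles for those with a lower mean. The brightest probe sets lie between -0.18 and 0.16, and the probe sets farthest from 0 are low ones of Rpl27 (-0.33) and Rpl41 (0.30).

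Mutations in many of these genes cause Diamond-Blackfan anaemia, in which red cell precursors fail. Of 19 such genes listed, 11 were measured, among them Rps19, Rps29, Rpl11, Rps10 and Rps28, and 5 were higher and 6 lower under the null label, with a median of -0.0026. None had an unadjusted p under 0.05. Of the ribosomal components that the symbol rule leaves out, Fau, whose product yields Rps30, was measured and differed by 0.08 (SE 0.13). Of the like-named relatives, 5 of 8 were measured. Rpl22l1, the paralogue of Rpl22, differed by -0.20 (SE 0.11) and Rps27l, a p53 target, by -0.16 (SE 0.12), and none of the 5 had a p under 0.05.

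The machinery around the ribosome was likewise without an adjusted call. Among the initiation factors 30 of 36 listed genes were measured, and 2 were higher and 2 lower at an unadjusted limma p under 0.05, or 4 of 30 beside 3.94% of all genes. Of the 2741 genes with a mean of at least 8, 23 were higher and 171 lower at that threshold. Eif3a, the scaffold of the eIF3 complex, differed by -0.22 (SE 0.06, limma p = 0.00400, exact permutation p = 0.0159), and Eif3l, another subunit of the same complex, by 0.28 (SE 0.08, limma p = 0.00621, exact permutation p = 0.0159). Eif2s2, the beta subunit of eIF2, differed by -0.25 (SE 0.10, exact permutation p = 0.0476) and the dim Eif4e2, a cap-binding relative of eIF4E, by 0.16 (SE 0.06, exact permutation p = 0.0317). The median of the list was -0.0076.

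Of the elongation and termination factors 10 of 11 were measured, with a median of -0.06. Abce1, which splits ribosomes after termination, had the sole limma p under 0.05, 1 of 10 lower beside 2.61% of all genes, at -0.24 (SE 0.10, exact permutation p = 0.0238). Its mean was 8.44, and of the 2741 genes with a mean of at least 8, 171 were lower at that threshold. Eef1a1, which delivers aminoacyl-tRNA, differed by 0.07 (SE 0.04). Other genes with a TOP start, 18 of 21 measured, had a median of 0.02, with 9 higher and 9 lower and 0 at a p under 0.05, and Eif3h was at 0.19 (SE 0.11).

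Ribosome biogenesis genes make and assemble rRNA in the nucleolus. Of 40 listed, 39 were measured, 12 higher and 27 lower under the null label, with a median of -0.03. Over all genes the split was 6053 higher and 6340 lower, and over the 2741 genes with a mean of at least 8 it was 893 and 1848. Of the 39 genes, 26 had a mean of at least 5. At an unadjusted limma p under 0.05, 2 of the 39 were lower and 0 higher, beside 2.61% and 1.33% of all genes. Of the 2741 genes with a mean of at least 8, 171 were lower and 23 higher at that threshold. The 2 biogenesis genes were Nop10, of the pseudouridylation particle (-0.22, SE 0.07, exact permutation p = 0.00794, the smallest possible), and Ncl, nucleolin (-0.20, SE 0.08, exact permutation p = 0.0397). Every mouse labelled null was below every mouse labelled wild type for Nop10, narrowly, at 10.32 to 10.573 against 10.575 to 10.91. This held for 0.371% of all genes and for 19 of the 2741 genes with a mean of at least 8. Of the mTOR pathway, 21 of 25 were measured, with a median of 0.0099. Akt1, a kinase upstream of mTORC1, was at -0.14 (SE 0.05, exact permutation p = 0.00794) and Mtor itself at -0.14 (SE 0.06, exact permutation p = 0.0794). The labels did not overlap for Akt1 either, at 8.70 to 8.78 in labelled null against 8.80 to 9.07. No gene of the list but Akt1 and Mtor had a limma p under 0.05, so that 2 of 21 were lower beside 2.61% of all genes. Both were bright, with means of 8.81 (Akt1) and 8.28 (Mtor), and of the 2741 bright genes 171 were lower at that threshold. No gene of these lists passed an adjusted p of 0.05.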

How the data were processed

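RNA from the cortex of 5 mice labelled wild type and 5 labelled null was hybridised to 1 Affymetrix mouse genome array each. The deposited values are log2 expression per probe set, made by the authors with GC-RMA (version not given in the sources used here), which corrects background by probe base composition, normalizes between arrays and summarises probes. No further normalization was applied. Array depth has no counterpart to read number, and the number of arrays limits the precision. Control probe sets (64) were left out, and 22626 were tested with limma 3.58.1 in R 4.3.3, labelled null minus labelled wild type, with Benjamini-Hochberg adjustment over all of them. The script was tested on simulated data. Of these probe sets 20380 have 1 gene in the platform annotation, 691 several and 1555 none, and 20351 were matched to the GRCm38.p6 gene table for current symbols.

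Members, gene lists and rules were chosen with earlier results of these data known. Genes named were the 8 with the smallest limma p in each direction, the stalk and scaffold proteins, Rps6, Rpl11, members of chromosome X and those between Homer2 and Gprc5b, members with a probe set at p under 0.05, and up to 3 of each list. Rps27a, Rpl5, Rpl10 and Rpl36a were not analysed here by name. Exact permutation tests exchanged labels over all mice, with a smallest possible p of 0.00794. Bright means a mean of at least 8, dim a mean under 5.

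Alternatives were median centring, quantile normalization, a mean of at least 5, a floor at 4, an intensity trend with robust prior, array weights, the methods' t-test, a replicate block, the mean of a gene's probe sets, leaving out _x_at and _s_at probe sets, platform symbols and leaving out each array. Marker lists covered 10 cell types or regions, and those of interneurons, astrocytes, microglia, endothelium, choroid plexus, striatum and red blood cells, beside the ones in the text, had no gene at an adjusted p under 0.05.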

Additional observations from a re-analysis of the deposited data

Results flagged for a closer look

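In 9 of 84 groups of 5 mice (each of the 42 genes under each label), 1 mouse lay far from the other 4 by Dixon's ratio of its gap to the whole range, with a critical value of 0.71. Chance flags about 1 in 20 groups, and the genes share arrays. Null replicate 5 gave 6 of the 9. It was high for Rps4x (ratio 0.963, 12.61 against 12.23 to 12.24), Rpl14 (0.823, 2.58 against 1.70 to 1.86, near background), Rpl10a (0.777, 12.58 against 12.10 to 12.20), Rpl7 (0.764, 12.40 against 12.15 to 12.21) and Rps18 (0.715, 11.86 against 11.64 to 11.70). It was low for Rps14 (0.761, 12.48 against 12.99 to 13.14). Under the wild type label, replicate 1 was low for Rps29 (0.848, 12.95 against 13.26 to 13.32), replicate 4 low for Rpl13a (0.733, 12.92 against 13.06 to 13.11) and replicate 5 high for Rpl37a (0.727, 12.97 against 12.70 to 12.77).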

How the results depend on the processing

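No member passed an adjusted p of 0.05 under any alternative. The median difference of the family ran from 0.0050 without null replicate 5 to 0.06 after quantile normalization. The array medians of the bright members had an SD within a label of 0.06, with null replicate 5 included. Bright members alone gave 0.02 and the probe sets of several genes 0.0033, both chosen after seeing the data. The number of genes higher at an unadjusted p under 0.05, 1 as reported, was 2 with median centring, 4 with quantile normalization, 2 with the mean of probe sets and 0 with a mean of at least 5, a floor at 4 or the intensity trend with robust prior. It was 0 to 3 when single arrays were left out. The number lower was 1 with array weights and 0 to 2 without single arrays, and the number without overlap was 2 with quantile normalization and 0 to 1 without single arrays. Shares over all genes to set beside these counts are given here for the values as deposited alone. The causes were not tested.

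With the replicate number as a block, 2 genes were higher, Rpl12 and Rps19. Deviations of arrays with the same number correlated at 0.07 to 0.54 and those with other numbers at -0.59 to 0.43, and 1 of 5 wild type arrays was best matched by its own number, so the numbers were not shown to pair the mice.

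Of 517 recomputed differences of 25 named genes, 459 kept direction and side of an unadjusted p of 0.05 and 31 turned sign, in 11 genes. With quantile normalization Rps10 was 0.0044, Rps2 0.0225, Rplp2 0.0333, Rpl11 0.0316 and Rpl41 0.0461. With array weights Rpl27a was 0.0084 and Rpl41 0.0484, with the mean of probe sets Rps9 was -0.0207, Rps18 0.0132 and Rpl41 0.135, and without _x_at and _s_at probe sets Rpl35 was 0.0112 and Rpl41 0.207. Without single arrays the range was -0.0716 to 0.0249 for Rpl11, -0.13 to 0.0039 for Rpl27a, -0.0292 to 0.0252 for Rpl39, -0.0653 to 0.0877 for Rpl41, -0.0584 to 0.0207 for Rplp2, -0.0825 to 0.0029 for Rps2 and -0.0435 to 0.10 for Rpsa. Signal over background limits Rps6, Rps25, Rps27, Rpl39 and Rpl14.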
